A study of Mus musculus with 9 samples.

Results

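The 9 genes described here, Cs, Idh2, Idh3a, Ogdh, Dlst, Sucla2, Suclg1, Fh1 and Mdh2, encode enzymes of the tricarboxylic acid cycle. The rule took the probes whose gene name in the scanner files is one of these symbols and used no measured value, although the set was proposed with earlier results of these data known. They had 12 of 39429 probes and made up 9 of 21995 genes tested. All 12 probes were well above background on all 9 arrays and passed the filter on dim probes.

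C2C12 cells, a clonal mouse myoblast line that can fuse into myotubes, were treated for 72 h with vehicle, with 1 nM or with 10 nM of 1,25 (OH)2-vitamine D3 (calcitriol, the hormonal form of vitamin D). The title of the series names myotubes, but the labels do not give the stage at which treatment began. Each group had 3 samples, named as biological replicates, and each sample was read on its own 1-colour array. No gene was altered in any group.

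The tricarboxylic acid cycle runs in the mitochondrial matrix and oxidises the acetyl group of acetyl-CoA to carbon dioxide. Its dehydrogenases pass electrons to NADH and to the respiratory chain, and muscle depends on it for sustained work. All 9 proteins are encoded in the nucleus, made in the cytosol and imported into mitochondria.

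On 10 nM calcitriol, 5 of the 9 genes rose, by 1.19-fold to 1.40-fold, and none fell past the test. These were Idh3a, Ogdh, Sucla2, Fh1 and Suclg1. On 1 nM calcitriol Sucla2 alone rose, by 1.26-fold. Cs, Idh2, Dlst and Mdh2 passed the test in no comparison. Of all genes tested, 30.1% were called at 10 nM against vehicle (15.4% higher and 14.7% lower), and 23.6% at 1 nM against vehicle (11.8% higher and 11.8% lower). The count of 1 of 9 at 1 nM was thus close to the share of all genes called higher. The median log2 change of the 9 genes was 0.26 at 10 nM and 0.13 at 1 nM, beside medians over all genes of -0.11 and -0.09. The arrays of 3 genes (Sucla2, Suclg1 and Fh1) lay wholly above vehicle at 1 nM, where 19.8% of all genes did. Both comparisons used the same 3 vehicle arrays.

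A gene was called when limma's test across all genes gave a Benjamini-Hochberg adjusted p under 0.05. Levels below are log2 of the processed signal minus the 75th percentile of that signal on the same array, so a level of 0 is the array's 75th percentile, and the levels of different genes are not set against each other. With bulk RNA, a change in the make-up of the cells and a change in RNA per cell cannot be told apart.

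**Figure D1:**
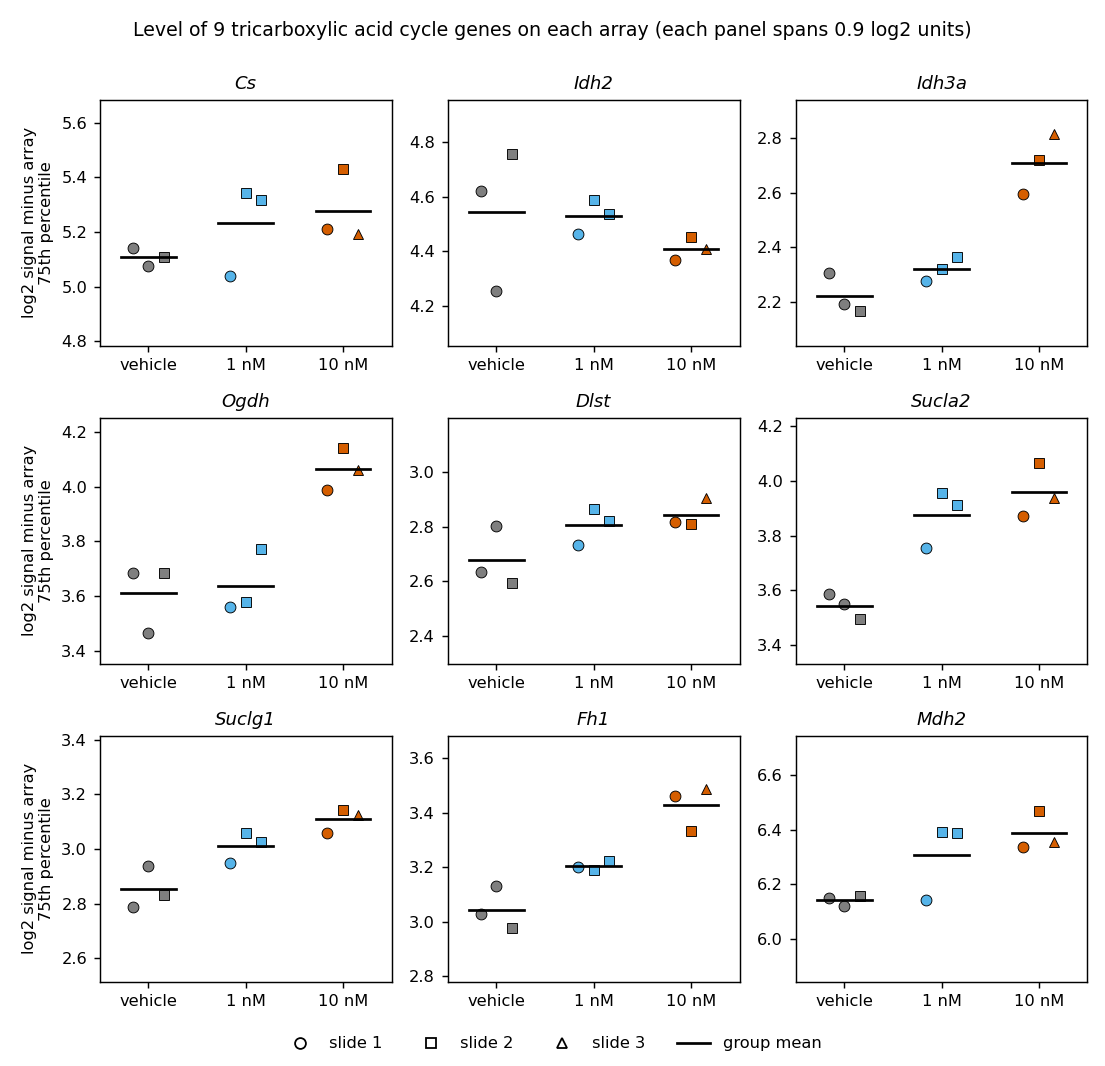
Level of each of the 9 genes on each of the 9 arrays, as log2 processed signal minus the array's 75th percentile, in the vehicle, 1 nM and 10 nM groups. Points are single arrays with the slide as symbol, bars are group means, and every panel spans the same height. For 8 of the 9 genes the 10 nM arrays lay wholly above the vehicle arrays (21.8% of all genes tested did), Idh2 being the exception.

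The array of vehicle replicate 3 stood apart. It had 13.8% of its spots marked as non-uniform, against at most 0.126% on the other arrays, and 96.4% of its spots were well above background, against 67.1% to 79.2%. Its median level was -2.27 on the log2 scale relative to its 75th percentile, against -3.75 to -3.41 on the other arrays, so scaling to the array median in place of the 75th percentile moved the median of all genes by 0.49 at 1 nM and by 0.53 at 10 nM. None of the 12 probes lost its value on that array. The arrays lay on 3 slides, slide 1 with vehicle 1, vehicle 2, 1 nM replicate 1 and 10 nM replicate 1, slide 2 with vehicle 3, 1 nM replicates 2 and 3 and 10 nM replicate 2, and slide 3 with 10 nM replicate 3 alone. As a check of the treatment, the vitamin D target Cyp24a1 rose 70.2-fold at 10 nM and 2.45-fold at 1 nM.

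Of the muscle markers, 8 of 8 (Des, Myod1, Myog, Myh3, Ckm, Acta1, Mymk and Ttn) were above background on all arrays. Their summed linear level, relative to the 75th percentile, was 223 to 246 in vehicle, 270 to 288 in 1 nM and 279 to 285 in 10 nM arrays. The summed level of 6 markers of dividing cells was 30.8 to 34.9 in vehicle, 1.67 to 1.92 in 1 nM and 1.06 to 1.098 in 10 nM arrays, and all 6 fell at both doses. That of 5 adipocyte markers was 0.0809 to 0.434 in vehicle, 1.25 to 1.40 in 1 nM and 3.62 to 3.97 in 10 nM arrays, and of these Lep was well above background on 2 of 9 arrays. At 10 nM Adipoq (log2 change 7.67) and Fabp4 (7.59) rose, while Plin1 (-1.45, adjusted p = 0.206), Cidec (-0.44, adjusted p = 0.34) and Lep (-1.26, adjusted p = 0.123) had fitted changes below 0. Adipoq and Fabp4 were each well above background on 7 of 9 arrays. On the vehicle arrays they read -8.93, -8.13 and -2.80 (Adipoq) and -8.27, -8.43 and -3.82 (Fabp4), highest on vehicle 3. The size of these 2 rises is therefore uncertain. The sums ran from 2.01 to 2.24 in vehicle, 1.68 to 2.12 in 1 nM and 1.85 to 2.38 in 10 nM arrays for 4 macrophage markers. They ran from 3.56 to 5.93, 3.82 to 5.21 and 4.55 to 6.26 for 4 endothelial markers, and from 14.7 to 20.0, 11.6 to 14.0 and 9.62 to 15.0 for 4 neural markers, in the same order. Of the endothelial markers, Cdh5 did not pass the filter on dim probes. Pecam1 and Tek had no value on vehicle 3, so the endothelial sum of that array holds Kdr and Cdh5 alone. The sums of the muscle, dividing and adipocyte markers did not overlap between treated and vehicle arrays at either dose, and that of the neural markers did not at 1 nM. Of the muscle markers, Myod1 (log2 change 0.89), Ttn (1.02), Des (0.49) and Ckm (0.37) rose at 10 nM and Myog fell by 0.43. Myh3, Acta1 and Mymk were not called at 10 nM (adjusted p = 0.0782, 0.117 and 0.544). Tubb3 among the neural markers fell by 1.92 at 10 nM. Among the endothelial markers Tek rose, by 2.78 at 10 nM and 2.73 at 1 nM. It was well above background on 7 of 9 arrays. Kdr and Pecam1 were not called at 10 nM (adjusted p = 0.98 and 0.451). The part of these cells or states in the changes below was not tested.

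Promoter sequence was set beside the 5 genes that show the range of responses with an entry in the RefSeq promoter table of build GRCm38.p6, in which 8 of the 9 genes were found. The 120 bases just before an annotated start site follow, each read 5′ to 3′ along the gene, with capitals marking motif matches. Sucla2, Suclg1 and Fh1 were called higher, Ogdh was called higher at 10 nM with nearly no change at 1 nM, and Idh2 was the 1 gene with a lower mean at this scaling.
Ogdh (chr11:6291477-6291596, + strand): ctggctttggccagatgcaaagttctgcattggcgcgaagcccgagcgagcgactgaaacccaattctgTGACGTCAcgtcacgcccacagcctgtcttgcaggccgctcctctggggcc
Sucla2 (chr14:73552666-73552785, + strand): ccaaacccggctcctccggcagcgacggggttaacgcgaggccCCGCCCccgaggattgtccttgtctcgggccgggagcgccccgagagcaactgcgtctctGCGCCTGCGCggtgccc
Suclg1 (chr6:73248385-73248504, + strand): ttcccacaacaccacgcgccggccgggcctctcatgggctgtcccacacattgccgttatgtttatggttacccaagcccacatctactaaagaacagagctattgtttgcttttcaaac
Fh1 (chr1:175625636-175625755, - strand): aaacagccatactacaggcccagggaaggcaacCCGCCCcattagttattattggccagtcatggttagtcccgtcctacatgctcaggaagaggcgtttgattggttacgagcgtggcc
Idh2 (chr7:80115351-80115470, - strand): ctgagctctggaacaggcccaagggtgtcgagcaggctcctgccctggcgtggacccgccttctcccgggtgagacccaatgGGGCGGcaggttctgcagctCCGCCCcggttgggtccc

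In windows of 300 bases (250 before and 50 after the start site), searched on both strands, the GC box GGGCGG was found in 7 of the 8 genes, all but Suclg1, and in 38.2% of 27025 genes. The cyclic AMP response element TGACGTCA was found in Ogdh and Mdh2, and in 2.03% of all genes. An NRF1 site (GCGCA, any base, then GCGC) was found in Sucla2 (5.19% of all genes) and the GABPA site CCGGAAGT in Dlst (4.31%). Neither the estrogen-related receptor element TCAAGGTCA (0.466% of genes) nor a vitamin D receptor repeat (AGGTCA, 3 bases of any kind, AGGTCA; 0.0074%) was found in these windows of the 8 genes. The letters of the NRF1 and GC box motifs can overlap in part. Sucla2 with 2 of these motifs and Suclg1 with none were both called at 10 nM.

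Cs encodes citrate synthase, which joins acetyl-CoA to oxaloacetate at the entry of the cycle. Its probe lay at chr10:127799428-127799487 on the + strand in the mm9 build, as did all probes below in that build, and the exon or UTR position of the probes was not analysed here. The level of Cs was 5.14, 5.08 and 5.11 on the vehicle arrays, 5.04, 5.34 and 5.32 on the 1 nM arrays, and 5.21, 5.43 and 5.19 on the 10 nM arrays. The vehicle arrays were close together, and 1 nM replicate 1 lay below all of them. The log2 change was 0.17 ± 0.11 (SE) at 10 nM (adjusted p = 0.263) and 0.12 ± 0.11 at 1 nM (adjusted p = 0.437). The 95% interval at 10 nM, from -0.08 to 0.42, holds no change as well as changes as large as those called for Suclg1 and Fh1.

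Isocitrate is oxidised to 2-oxoglutarate by an NAD-linked enzyme, whose catalytic subunit is encoded by Idh3a, and by the NADP-linked mitochondrial enzyme encoded by Idh2. Idh3a showed the largest fitted change of the 9 genes at 10 nM. Its level (chr9:54451368-54451427, + strand) was 2.31, 2.19 and 2.17 on the vehicle arrays, 2.28, 2.32 and 2.36 on the 1 nM arrays, and 2.59, 2.72 and 2.81 on the 10 nM arrays. Every 10 nM array lay above every other array, whereas the 1 nM and vehicle arrays overlapped. At 10 nM Idh3a averaged 2.71 ± 0.11, against 2.22 ± 0.07 in vehicle (SD, n = 3 each), a 1.40-fold rise with an adjusted p of 0.00243 by limma. At 1 nM the log2 change was 0.10 ± 0.08 (adjusted p = 0.405). Set directly against 1 nM, Idh3a was 1.31-fold higher at 10 nM (adjusted p = 0.0396), but the adjusted p was 0.116 with the replicate number as a block over all arrays. That block also tied in the vehicle arrays, whose numbers were not taken as pairs, so it does not test the pairing of these 2 doses alone.

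Idh2 did not follow Idh3a. Its level (chr7:87239736-87239795, - strand) was 4.62, 4.25 and 4.76 on the vehicle arrays, 4.46, 4.59 and 4.54 on the 1 nM arrays, and 4.37, 4.45 and 4.41 on the 10 nM arrays. The vehicle arrays spread more widely than for any of the other 8 genes, with vehicle 2 below and the other two above all 10 nM arrays. The log2 change was -0.13 ± 0.13 (SE) at 10 nM (adjusted p = 0.446) and -0.01 ± 0.13 at 1 nM (adjusted p = 0.947), and with the array median as scale it was 0.42 and 0.50, beside 0.42 and 0.40 for all genes. Without vehicle 2 the change at 10 nM was -0.28 with an adjusted p of 0.0343, and it was -0.03 (adjusted p = 0.872) without vehicle 3. All 10 nM arrays were below all 1 nM arrays, with a log2 change of -0.12 and an adjusted p of 0.967. The difference between the Idh3a and Idh2 changes was not tested.

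The 2-oxoglutarate dehydrogenase complex makes succinyl-CoA. Ogdh encodes its first component, a thiamine-dependent decarboxylase that is stimulated by calcium, and Dlst its succinyltransferase. The brightest Ogdh probe (chr11:6256583-6256642, + strand) read 3.69, 3.46 and 3.69 on the vehicle arrays, 3.56, 3.58 and 3.77 on the 1 nM arrays, and 3.99, 4.14 and 4.06 on the 10 nM arrays. The 10 nM arrays stood above all the others, and the 1 nM arrays were mixed with vehicle. Ogdh rose 1.37-fold at 10 nM (log2 change 0.45 ± 0.10, adjusted p = 0.00895), and at 1 nM the change was 0.03 ± 0.10 (adjusted p = 0.871) and took the other sign with normexp background correction (-0.11). Against 1 nM, the level at 10 nM was 1.35-fold higher without passing the test (adjusted p = 0.0575, and 0.124 with the replicate block).

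Ogdh had 2 further probes. One just upstream, at chr11:6256511-6256570, read 3.05, 2.97 and 2.96 on the vehicle arrays, 2.99, 3.12 and 3.21 on the 1 nM arrays, and 3.55, 3.46 and 3.38 on the 10 nM arrays. Tested on its own among all kept probes it was higher at 10 nM by 0.47 (adjusted p = 0.0041), as the brightest probe was. The dim downstream probe, at chr11:6258910-6258969, read 0.02, -0.01 and -0.53 on the vehicle arrays, -0.33, -0.61 and -0.71 on the 1 nM arrays, and -0.20, -0.61 and -0.50 on the 10 nM arrays. It thus went the other way, by -0.26 at 10 nM (adjusted p = 0.322) and -0.38 at 1 nM (adjusted p = 0.202), with vehicle 1 and 2 above every treated array. With the mean of the 3 probes the change of Ogdh at 10 nM was 0.22 and was no longer called (adjusted p = 0.0747). The transcripts that each probe reads were not analysed here.

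Dlst (chr12:86474710-86474769, + strand) read 2.63, 2.80 and 2.59 on the vehicle arrays, 2.73, 2.87 and 2.82 on the 1 nM arrays, and 2.82, 2.81 and 2.90 on the 10 nM arrays. The treated arrays lay in the upper part of the range, and vehicle 2 was nearly level with them. The log2 change was 0.17 ± 0.08 at 10 nM (adjusted p = 0.156) and 0.13 ± 0.08 at 1 nM (adjusted p = 0.291).

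**Figure D2:**
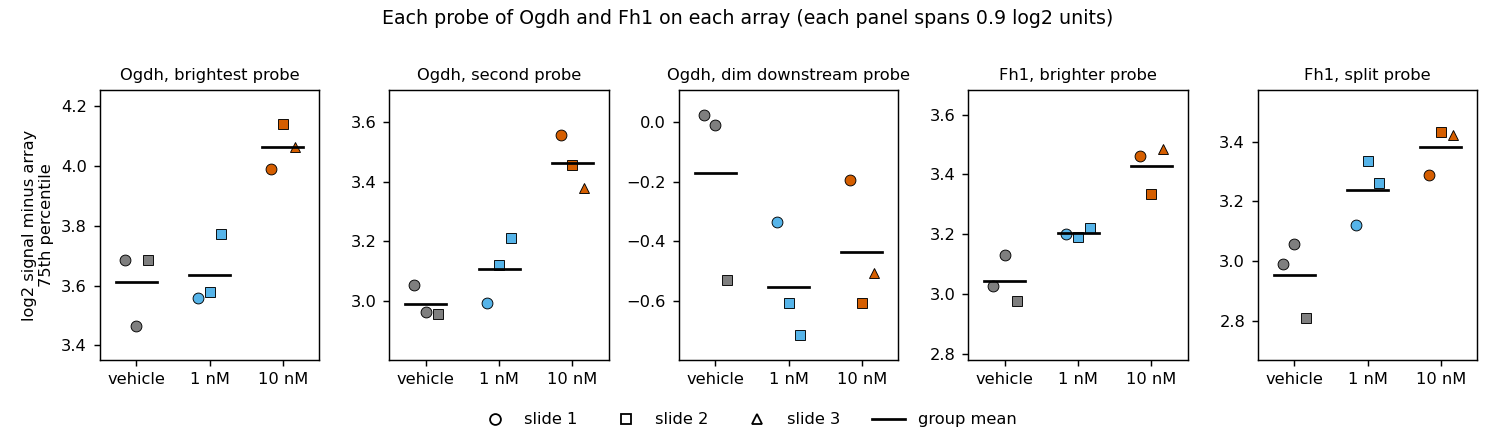
Level of each of the 3 Ogdh and 2 Fh1 probes on each array, as log2 processed signal minus the array's 75th percentile, by group, with the slide as symbol and bars for group means. Both brighter Ogdh probes and both Fh1 probes have all 10 nM arrays above all vehicle arrays, and the dim downstream Ogdh probe does not.

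Succinyl-CoA ligase makes succinate and a nucleoside triphosphate. Suclg1 encodes the alpha subunit, which is shared, and Sucla2 the beta subunit of the ATP-forming enzyme. Sucla2 was the 1 gene of the 9 that rose at both doses. Its level (chr14:73995311-73995370, + strand) was 3.59, 3.55 and 3.50 on the vehicle arrays, 3.75, 3.96 and 3.91 on the 1 nM arrays, and 3.87, 4.07 and 3.94 on the 10 nM arrays. No treated array overlapped the vehicle arrays, and the groups of the doses overlapped each other. The rise was 1.33-fold at 10 nM (log2 change 0.42 ± 0.08, adjusted p = 0.00685) and 1.26-fold at 1 nM (0.33 ± 0.08, adjusted p = 0.0239). At 1 nM the call was lost without vehicle 3 (adjusted p = 0.0519), without 1 nM replicate 2 (0.0959) and without 1 nM replicate 3 (0.0906), and with the slide as a block (0.0579).

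Suclg1 (chr6:73221044-73221103, + strand) read 2.79, 2.94 and 2.83 on the vehicle arrays, 2.95, 3.06 and 3.03 on the 1 nM arrays, and 3.06, 3.14 and 3.12 on the 10 nM arrays. The 3 groups followed the dose and touched without overlapping. Suclg1 rose 1.19-fold at 10 nM (log2 change 0.26 ± 0.07, adjusted p = 0.0256), and at 1 nM the change was 0.16 ± 0.07 (adjusted p = 0.149). The call at 10 nM was lost without vehicle 1 (adjusted p = 0.0771), without 10 nM replicate 2 (0.0872) or 3 (0.0811), and with the slide as a block (0.0858). In the submitters' table the change of Suclg1 at 10 nM was 0.11 (adjusted p = 0.355).

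Fh1 encodes fumarase, which hydrates fumarate to malate in mitochondria and, in a cytosolic pool, also outside them. It was read by 2 probes, one at chr1:177531530-177531589 and one that spans 2431 bases of the genome at chr1:177531659-177534089, both on the - strand. The split probe is shown because its 60 bases lie in separate stretches of the gene, so its target is joined from both.
Fh1 split probe: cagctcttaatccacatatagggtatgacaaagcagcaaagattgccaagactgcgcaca

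The brighter Fh1 probe read 3.03, 3.13 and 2.98 on the vehicle arrays, 3.20, 3.19 and 3.22 on the 1 nM arrays, and 3.46, 3.33 and 3.49 on the 10 nM arrays. The 3 groups did not overlap and followed the dose. Fh1 rose 1.30-fold at 10 nM (log2 change 0.38 ± 0.07, adjusted p = 0.00486). At 1 nM its change was 0.16 ± 0.07 (adjusted p = 0.158), and at 10 nM against 1 nM it was 0.22 ± 0.07 (adjusted p = 0.196). The split probe read 2.99, 3.06 and 2.81 on the vehicle arrays, 3.12, 3.33 and 3.26 on the 1 nM arrays, and 3.29, 3.43 and 3.42 on the 10 nM arrays. Its log2 change, tested among all kept probes, was 0.43 at 10 nM (adjusted p = 0.0116) and 0.29 at 1 nM (adjusted p = 0.0697), so both probes of Fh1 were called higher at 10 nM.

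Mdh2 encodes mitochondrial malate dehydrogenase, which regenerates oxaloacetate and takes part in the malate-aspartate shuttle. Its level (chr5:136266157-136266216, + strand) was 6.15, 6.12 and 6.16 on the vehicle arrays, 6.14, 6.39 and 6.39 on the 1 nM arrays, and 6.34, 6.47 and 6.35 on the 10 nM arrays. All 10 nM arrays and 1 nM replicates 2 and 3 lay above vehicle, while 1 nM replicate 1 lay within it. The log2 change was 0.24 ± 0.09 at 10 nM, which did not pass the test (adjusted p = 0.0685), and 0.16 ± 0.09 at 1 nM (adjusted p = 0.22). Cs and Mdh2 shared this pattern of a tight vehicle group and a low 1 nM replicate 1.

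**Figure D3:**
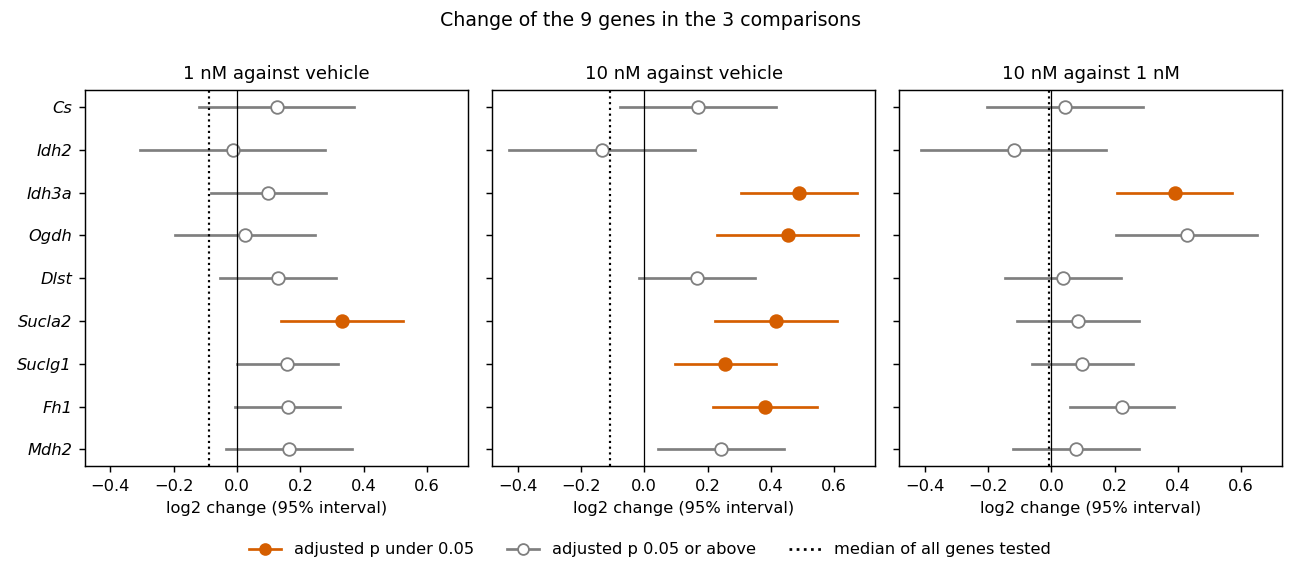
Log2 change of each of the 9 genes with its 95% interval at 1 nM against vehicle, at 10 nM against vehicle and at 10 nM against 1 nM. Filled points have an adjusted p under 0.05, and the dotted line is the median of all genes tested. The 5 filled points at 10 nM lie between 0.26 and 0.49, and Idh2 is the 1 gene below 0 there, though above 0 with the array median as scale.

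Between the doses, 1 of the 9 genes was called, Idh3a, where 3.81% of all genes were called (1.6% higher and 2.21% lower). The median log2 change of the 9 genes was 0.08, beside -0.01 over all genes, and 4 genes had all 10 nM arrays above all 1 nM arrays (12.6% of all genes did). These were Idh3a, Ogdh, Suclg1 and Fh1. With the replicate number as a block over all arrays, vehicle included, 0 of the 9 genes and 459 genes in all were called, against 837 without it. Idh3a and Ogdh had most of their 10 nM change above the 1 nM level, and Sucla2 had most of it at or below that level, with a change of 0.08 ± 0.08 between the doses (95% interval -0.11 to 0.28). The difference between these patterns was not tested.

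Most of the 9 genes shared a pattern over the treated arrays. The array of 1 nM replicate 1, on slide 1, was the lowest of its group for 8 of the 9 genes, where it was the lowest for 42.1% of all genes with a value on all arrays. The array of 10 nM replicate 1, also on slide 1, was the lowest of its group for 6 of them (30.1% of all genes). Replicate 2 on slide 2 was the highest of its group for 6 of the 9 genes at 10 nM and at 1 nM (35.7% and 32.1% of all genes). The vehicle arrays showed no such order. Vehicle 1 and 2 (slide 1) and vehicle 3 (slide 2) were each the highest for 3 genes (23.7%, 25% and 51.2% of all genes). They were the lowest for 1, 4 and 4 genes (24.1%, 45.2% and 30.7%).

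Within slide 1 the 10 nM log2 changes were 0.35 for Idh3a, 0.41 for Ogdh, 0.31 for Sucla2, 0.20 for Suclg1 and 0.38 for Fh1. They set the 1 array at 10 nM there against vehicle 1 and 2. The spread was taken from these 2 vehicle arrays, so no calls are read from this fit. Within slide 2 the same changes were 0.55, 0.46, 0.57, 0.31 and 0.36. They set the 1 array at 10 nM there against vehicle 3 alone, with the spread taken from the 2 arrays at 1 nM, so the calls of that fit are not read here. With the slide as a block, which leaves 10 nM replicate 3 without weight, Idh3a, Ogdh, Sucla2 and Fh1 were called at 10 nM, with changes of 0.43, 0.43, 0.41 and 0.36.

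How the arrays were brought to 1 scale changed the calls more than the order of the genes. With scaling to the array median, 0 of the 9 genes were called at 10 nM, 2 of 9 (Idh3a and Ogdh) when vehicle 3 was also left out. The median change with all arrays was then 0.81 for the 9 genes beside 0.42 for all genes. With quantile normalization 3 of 9 were called at 10 nM (Idh3a, Ogdh and Sucla2), and the median change of the 9 genes was 0.33 beside 0.23 for all genes. At 1 nM under that setting the 9 genes had a median of 0.20 and all genes one of 0.24, so the 9 genes did not stand above the rest there. The share of higher genes among all those called against vehicle was 51.2% (10 nM) and 49.9% (1 nM). With the array median these shares were 67.2% and 62.4%, and with quantile normalization 64.2% and 63.2%.

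**Figure D4:**
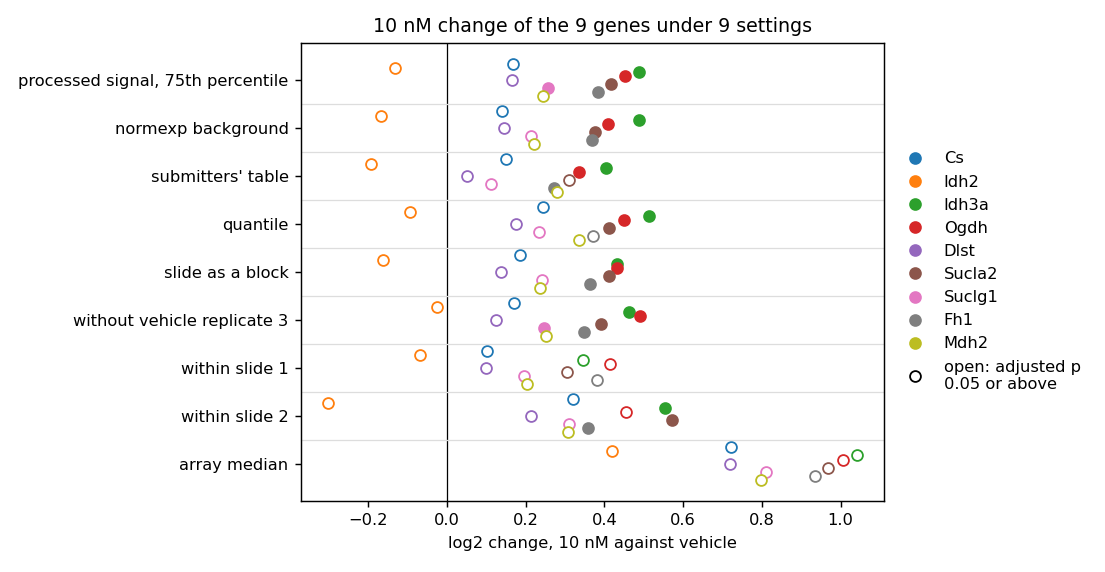
Log2 change at 10 nM against vehicle of the 9 genes under 9 settings of scaling, background correction, slide and arrays used. Filled points have an adjusted p under 0.05. Idh3a and Ogdh have the highest values in the settings that use all arrays, and Idh2 is lowest in each setting. No point is filled with array median scaling. The fits within a slide hold 1 array at 10 nM, so whether their points are filled is not read.

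Other subunits of the cycle's enzymes were read for 8 further genes, Idh3b, Idh3g, Dld, Suclg2, Sdha, Sdhb, Sdhc and Sdhd. At 10 nM 7 of these 8 rose and none fell (15.4% and 14.7% of all genes did), with a median log2 change of 0.50. The exception, Sdhc, named after its values were seen, had a change of 0.26 (adjusted p = 0.065). At 1 nM 5 of 8 rose (11.8% of all genes did), with a median of 0.32. The 4 calls named below at 1 nM were each lost when 1 array was left out, Idh3b without 1 nM replicate 3 and Sdha, Suclg2 and Dld without 1 nM replicate 2 or 3 among others (adjusted p = 0.0526 to 0.0953), while those at 10 nM were kept. Idh3b, the regulatory beta subunit of the enzyme that Idh3a belongs to, rose 1.68-fold at 10 nM and 1.42-fold at 1 nM. Sdha, the flavoprotein subunit of succinate dehydrogenase, rose 1.45-fold at 10 nM and 1.25-fold at 1 nM. Suclg2, the beta subunit of the GTP-forming succinyl-CoA ligase, rose 1.37-fold and 1.25-fold at these doses. Sdhb, the iron-sulfur subunit of succinate dehydrogenase, rose 1.41-fold at 10 nM, and Dld, the dihydrolipoamide dehydrogenase that the 2-oxoglutarate complex shares with related complexes, rose 1.34-fold at 1 nM.

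Over these 17 genes of the cycle, 12 were called higher at 10 nM and 6 at 1 nM, where 15.4% and 11.8% of all genes were. None was called lower, where 14.7% and 11.8% of all genes were. In each comparison 16 had a fitted change above 0, where 40.9% of all genes did against vehicle at either dose and 48.4% between the doses. Leaving out 1 array at a time gave 11 to 13 called at 10 nM. All were higher except without vehicle 2, where 12 were higher and Idh2 was lower. At 1 nM the count was 4 without vehicle 3, 3 without vehicle 1, 1 without 1 nM replicate 2 and 0 without 1 nM replicate 3. With the array median as scale the counts were 1 at 10 nM and 0 at 1 nM. Between the doses Idh3a was the 1 gene of the 17 called, and Sdhd, a membrane anchor of succinate dehydrogenase, and Sdhb had changes of 0.24 (adjusted p = 0.161) and 0.28 (adjusted p = 0.181).

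**Figure D5:**
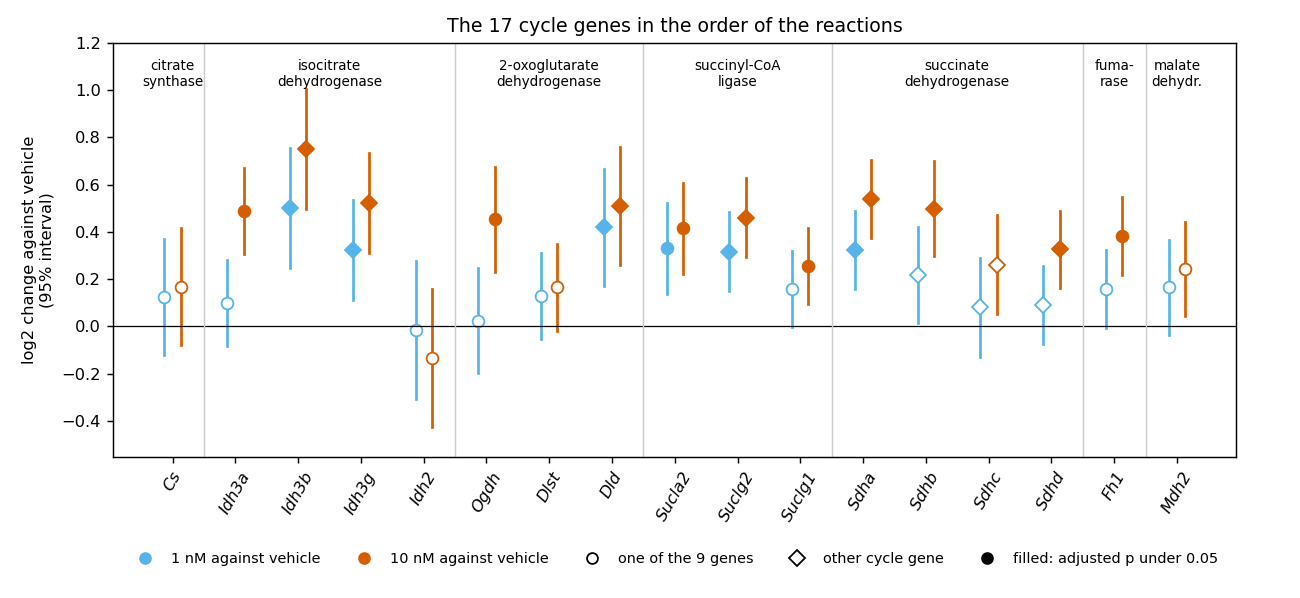
Log2 change against vehicle, with its 95% interval, of 17 genes of the cycle in the order of its reactions, at 1 nM and 10 nM. Circles are the 9 genes described first, diamonds the other cycle genes, and filled points have an adjusted p under 0.05. Idh2 is the 1 gene below 0 at this scaling (above 0 with the array median), and Idh3b has the largest change.

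The counts of the further groups below stand against the shares of all genes called, at 10 nM 15.4% higher and 14.7% lower, and at 1 nM 11.8% higher and 11.8% lower. Of the calls named in all further groups, 20 of 22 at 10 nM and 11 of 19 at 1 nM were kept whichever array was left out. Many were lost with the array median as scale. The groups below, in their order, then had 6, 1, 2, 1, 0 and 2 calls at 10 nM (11, 3, 7, 1, 3 and 3 as reported). At 1 nM they had 2, 0, 0, 0, 0 and 1 (9, 3, 6, 1, 2 and 1 as reported). Pyruvate reaches the cycle through the mitochondrial pyruvate carrier and the pyruvate dehydrogenase complex, which kinases switch off and phosphatases switch on. Of 12 such genes, 9 rose and 2 fell at 10 nM (median log2 change 0.46), and 6 rose and 3 fell at 1 nM (median 0.27). Without 1 nM replicate 2, and likewise without replicate 3, 3 rose and 2 fell at 1 nM. Pdk1, one of the kinases, fell by 1.91 on the log2 scale at 10 nM and by 2.00 at 1 nM. Pdp1, a phosphatase that activates the complex, rose 2.08-fold at 10 nM and 1.35-fold at 1 nM, and its level at 10 nM was 1.53 times that at 1 nM (adjusted p = 0.00818, and 0.0553 with the slide as a block). Dlat, the acetyltransferase of the complex, rose 1.60-fold at 1 nM, and the kinase Pdk4 rose 1.62-fold at 10 nM. The kinase Pdk2 rose 1.60-fold at 10 nM, but with the mean of its probes the log2 change was 0.23 (adjusted p = 0.533).

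Of 5 genes for cytosolic counterparts and citrate use, 1 rose and 2 fell at either dose, with medians of -0.14 at 10 nM and -0.27 at 1 nM. Idh1, the cytosolic NADP-linked isocitrate dehydrogenase, rose 2.26-fold at 10 nM and 1.59-fold at 1 nM, with a 10 nM level 1.42 times that at 1 nM (adjusted p = 0.00605). Its call between the doses was lost in the submitters' table (adjusted p = 0.113), with the array median as scale and with quantile normalization. The mitochondrial paralog Idh2, described above, did not pass the test in any of these comparisons. Slc25a1, the mitochondrial citrate carrier, fell by 0.56 on the log2 scale at 10 nM and by 0.62 at 1 nM. With the array median as scale its changes at 10 nM and 1 nM were -0.007 and -0.11 (adjusted p = 0.99 and 0.85). With quantile normalization neither was called (adjusted p = 0.144 and 0.124). Acly, which splits exported citrate into acetyl-CoA and oxaloacetate, fell by 0.52 and 0.51 at these doses, with adjusted p of 0.0291 and 0.0378, and its fitted change was 0.03 and 0.00 with the array median as scale. Its call was lost in 6 of 9 fits with 1 array left out at 10 nM (adjusted p = 0.0518 to 0.0883, all but those without vehicle 2 or 1 nM replicate 1 or 3). At 1 nM it was lost in 8 of 9 (0.0548 to 0.111, all but that without vehicle 2).

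Of 10 genes that feed or drain the cycle, 4 rose and 3 fell at 10 nM (median 0.10), and 3 rose and 3 fell at 1 nM (median 0.02). Pck2, mitochondrial phosphoenolpyruvate carboxykinase, fell by 1.55 on the log2 scale at 10 nM and by 1.33 at 1 nM. Me3, a mitochondrial malic enzyme, rose 1.62-fold and 1.49-fold, while the cytosolic malic enzyme Me1 fell by 0.60 and 0.65. With the array median as scale the changes of Me1 at 10 nM and 1 nM were -0.05 and -0.13 (adjusted p = 0.933 and 0.824). Got2, the mitochondrial aspartate aminotransferase of the malate-aspartate shuttle, rose 1.40-fold and 1.28-fold. Between the doses none of the 10 was called; Got1, the cytosolic counterpart of Got2, had a change of 0.20 (adjusted p = 0.203) and Got2 one of 0.13 (adjusted p = 0.645).

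Of 5 relatives of the 2-oxoglutarate dehydrogenase complex, 1 rose and none fell at either dose, a count near the share of all genes called higher. This was Bckdha, the alpha subunit of the branched-chain decarboxylase, which rose 1.64-fold at 10 nM and 1.53-fold at 1 nM. Between the doses Dbt and Bckdha, both of the branched-chain complex, had changes of 0.17 (adjusted p = 0.472) and 0.10 (adjusted p = 0.89).

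Among 9 genes taken as general mitochondrial content (import, outer membrane and chaperone proteins), 3 rose and none fell at 10 nM (median 0.19), and 2 rose at 1 nM (median 0.15). Neither was called at 1 nM without 1 nM replicate 2 or without replicate 3, with the slide as a block or in the submitters' table, and 1 was called without vehicle 1, vehicle 3 or 1 nM replicate 1. Hspa9 and Hspd1, chaperones of the matrix, rose 1.41-fold and 1.29-fold at 10 nM and 1.30-fold and 1.25-fold at 1 nM. Vdac2, an outer membrane channel, rose 1.26-fold at 10 nM. At that dose the Hspd1 call was lost with the slide as a block (adjusted p = 0.0517) and in the submitters' table (0.0857). None of the 9 was called at 10 nM with the array median as scale. Between the doses Vdac2 and Timm23, a subunit of the inner membrane translocase, had changes of 0.17 (adjusted p = 0.329) and 0.20 (adjusted p = 0.665).

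Of 9 regulators of mitochondrial transcription, 8 were measured, and Esrrg did not pass the filter on dim probes. At 10 nM 2 rose and 1 fell (median 0.18), and at 1 nM 1 rose (median 0.10), counts close to the 30.1% and 23.6% of all genes called. The 1 nM count was 0 without any 1 of the 3 arrays at 1 nM and 2 without vehicle 3. Tfb2m, a factor of mitochondrial DNA transcription, rose 1.37-fold at 10 nM and 1.31-fold at 1 nM. Ppargc1b, a coactivator related to Ppargc1a, rose 1.94-fold at 10 nM, and Esrrb, an orphan nuclear receptor, fell by 0.93 on the log2 scale (adjusted p = 0.0344). That call was lost without any 1 of the treated arrays of either dose (adjusted p = 0.0563 to 0.101), with the slide as a block (0.0761) and with the mean of probes (0.0881), and its change was -0.58 without vehicle 3. The 10 nM level of Ppargc1b was 1.54 times that at 1 nM (adjusted p = 0.0406), a call that was kept without vehicle 3 or without 1 nM replicate 1 and lost when any other array was left out (adjusted p = 0.0579 to 0.156).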

How the data were processed

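Total RNA of 9 samples was read on 1-colour arrays. Per the file headers, the processed signal of the deposited scanner files is an intensity on a linear scale after background subtraction, and other columns are marks of 0 or 1 for control, non-uniform and well-above-background spots. The deposited series table holds log2 values and served as an alternative. Per the submitters' processing notes, Agilent Feature Extraction 11.5.1.1 and limma (no version) were used.

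Here each array's 75th percentile was subtracted from the log2 processed signals. Control and non-uniform spots were left out, spots of a probe were averaged, and a probe was kept if well above background on all 3 arrays of a group (28342 probes, 71.9%). Of several kept probes, the one with the highest mean stood for the gene, and genes were named through a RefSeq table of GRCm38.p6 by accession (21036 kept probes) or symbol (2168), or by the files' name (5138). Probe coordinates are those of mm9, per the file headers. All groups were fitted together without a block in limma 3.58.1 and R 4.3.3 (lmFit and eBayes, 6 residual degrees of freedom), with Benjamini-Hochberg adjustment over 21995 genes. The procedure was tested on simulated data. The number of arrays limits the precision.

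The members and lists were chosen with earlier results of these data known. Text names all 9 genes and, of each further list and comparison, up to 4 called members with the smallest p, or 2 where none was called. One gene of the further lists is not reported here and was left out of their counts. Deviations from the group means of same-numbered arrays correlated at 0.484, 0.329 and 0.144 between 10 nM and 1 nM, so those numbers were taken as pairs, from the data and not from a label. Against vehicle they correlated at 0.053, -0.021 and -0.008 (1 nM) and at -0.186, -0.193 and -0.42 (10 nM), and were not. The 1 nM and 10 nM arrays shared slide 1 for replicate 1 and slide 2 for replicate 2, and lay on slides 2 and 3 for replicate 3. Pairing by number thus cannot be told apart from sharing a slide for replicates 1 and 2. The reported fit had no block, so its p-values between the doses do not use these pairs. No paired fit of the doses alone was run.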

Additional observations from a re-analysis of the deposited data

How the results depend on the processing

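Calls of the 9 genes at 10 nM held for Idh3a under 25 of 27 alternatives, for Ogdh, Sucla2 and Fh1 under 23 and for Suclg1 under 13; those of Sucla2 at 1 nM and of Idh3a between the doses held under 14 and 8. Counts below are for 1 nM against vehicle, 10 nM against vehicle and 10 nM against 1 nM, of the 9 genes (1, 5 and 1 as reported) and of all genes (5188, 6622 and 837). Array median scaling gave 0, 0 and 0 of 9 and 1417, 2384 and 49 genes, and without vehicle 3 it gave 0, 2 and 0 and 3427, 5205 and 547. Quantile normalization gave 0, 3 and 0 and 2797, 3981 and 122, and the submitters' values gave 0, 3 and 0 and 4099, 5292 and 423. Normexp gave 0, 4 and 1 of 9. Without the filter on dim probes the counts were 0, 4 and 0 and 4137, 5582 and 535, and with the median over probes above background on all arrays 1, 5 and 0 of 9. An intensity trend gave 1, 6 and 2 of 9, array weights 5, 7 and 2 and 10881, 10017 and 1879, and fitting only the groups compared 0, 4 and 2 and 3946, 4933 and 1351. The replicate block, fitted over all arrays though only the arrays of the doses were taken as pairs, gave 1, 5 and 0 and 4665, 6221 and 459, and changed no other count of the 9 genes. The slide block gave 0, 4 and 0 and 4825, 5611 and 355. Within slide 1 the counts were 0, 0 and 0 and 1584, 2574 and 5, and within slide 2 (1 vehicle and 1 10 nM array, with spread from 2 arrays at 1 nM) they were 1, 3 and 0 and 10449, 10019 and 0, where 26.6% and 27.9% of genes called against vehicle were higher (49.9% and 51.2% as reported). A threshold of 0.01 gave 0, 4 and 0 and 3092, 4339 and 370. With 1 array left out, 0 to 1, 4 to 6 and 0 to 1 of 9 and 3506 to 5570, 5104 to 7155 and 366 to 1267 genes were called. The array median without vehicle 3 and the median over bright probes were chosen after seeing the data. The cause of these moves was not tested, beyond fewer arrays or a stricter threshold where that is the setting.

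Most values that changed sign were near 0 or on a scale where all genes shifted. Cs at 1 nM, 0.12 as reported, was neither near 0 nor on another scale. Idh2 at 1 nM (-0.014) was 0.036 with normexp, 0.50 with the array median, 0.20 with it and without vehicle 3, 0.050 with quantile normalization, 0.052 in the submitters' table, 0.028 within slide 1, 0.051 with the median over bright probes, and -0.16 to 0.093 with 1 array left out. Idh2 at 10 nM was 0.42 with the array median and 0.11 with it and without vehicle 3. Ogdh at 1 nM (0.025) was -0.11 with normexp, -0.13 in the submitters' table, -0.079 with the mean of probes, -0.024 with array weights, -0.016 with the slide block, -0.015 within slide 1, -0.011 within slide 2, and -0.049 to 0.064 with 1 array left out. Between the doses, Dlst (0.037) was -0.030 with normexp, -0.026 with quantile normalization, -0.075 in the submitters' table, -0.035 within slide 2, and -0.00022 to 0.067 with 1 array left out. Sucla2 between the doses was -0.0087 in the submitters' table, Cs was -0.053 to 0.099 and Mdh2 -0.0039 to 0.12 with 1 array left out, and Cs at 1 nM was -0.071 within slide 1. With the array median Acly was 0.0031 at 1 nM and 0.033 at 10 nM.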
